A study of Mus musculus with 16 samples.

Results

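The comparison concerns induced hair cell-like cells (iHCs) made with doxycycline (Dox) and retinoic acid (RA), on day 12 of culture against day 8, and it covered 6 of the 16 arrays of the series, 3 for each day, chosen by their labelled treatment and day. The cells came from the mouse embryonic stem cell line iGPA-Myo7a:mVenus, in which Dox induces Atoh1, Gfi1 and Pou4f3, all transcription factors, and regulatory sequence of Myo7a drives the fluorescent reporter mVenus. Stem cells grew as floating embryoid bodies (EBs), treatment began on day 4, and cells with reporter signal were then sorted. The Dox+RA iHCs had thus been treated for 8 days by day 12 and for 4 days by day 8. The other groups were Dox iHCs, treated with Dox and no RA and sorted in the same way, on day 12 (3 arrays) and day 8 (3 arrays), and control EBs, neither treated nor sorted, on day 12 (2 arrays) and day 8 (2 arrays). All groups derived from this single reporter line, and the transgenes were present in the control EBs too. Because the sort selected on a Myo7a-driven reporter, Myo7a itself was not an independent readout.

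Hair cells are the mechanosensory cells of the inner ear. Atoh1 starts their differentiation, and Pou4f3 and Gfi1 act after it in maturation and survival. Retinoic acid, a derivative of vitamin A, binds nuclear receptors of the Rar and Rxr families, and in embryos it gives axial position to neural tissue through Hox genes. The interferon pathway works through receptors whose signal reaches a complex, with Stat2 and Irf9 among its parts, that binds a DNA element called the interferon-stimulated response element in the promoters of antiviral genes such as the Oas, Mx and Ifit families.

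Expression was read as log2 RMA signal, in which a difference of 1 is a 2-fold change, for 22180 genes. The array medians lay between 4.67 and 4.82 over the 16 arrays. Over all genes, arrays of day 12 correlated with each other at 0.988 to 0.995 and arrays of day 8 at 0.988 to 0.994, and pairs of arrays from different days at 0.979 to 0.987. Of 18 hair cell markers, all measured, 12 were higher by at least 1 log2 unit in Dox+RA iHCs than in control EBs of the same day on both days, among them Barhl1, Lhx3, Cdh23, Otof, Rbm24 and Chrna10. The other 6 did not reach this margin on both days, and they were Tmc1, a channel subunit of the transduction complex, the calcium buffers Pvalb, Ocm and Calb2, the cholinergic receptor subunit Chrna9 and the outer hair cell motor Slc26a5. Without Myo7a, on which the sort was based, 11 of 17 markers reached it. Of the 6 below the margin, some are genes of mature hair cells, and Otof, Slc17a8 and Chrna10 reached it. Whether the split follows maturity was not tested. Ocm, Calb2 and Slc26a5 averaged 3.1 to 3.7 in Dox+RA iHCs and 3.0 to 3.4 in control EBs, below the array medians.

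None of the induced factors passed the test between the days. Gfi1 read 11.26, 11.30 and 11.14 on day 12, against 11.17, 11.05 and 11.18 on day 8, a difference of 0.10 (limma adjusted p = 0.704). Pou4f3 differed by 0.02 (limma adjusted p = 0.973) and Atoh1 by -0.04 (limma adjusted p = 0.927). Myo7a read 8.52, 8.44 and 8.08 on day 12, against 9.33, 9.19 and 8.40 on day 8. Its arrays overlapped between the days, and the difference of -0.63 ± 0.25 (SE) did not pass the test (limma adjusted p = 0.185). The probes cannot tell a transgene transcript from the endogenous one where they lie in shared sequence, and this was not tested.

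Across all genes, 972 of 22180 (4.38%) passed an adjusted p of 0.05 in limma, with 394 higher (1.78%) and 578 lower (2.61%) on day 12. Of these, 183 (0.825%) changed at least 2-fold, 50 higher and 133 lower. The 3 arrays of one day lay wholly above those of the other for 964 of the 972 genes, against 5054 of all genes (22.8%). With the replicate number as a block, 2010 genes passed (9.06%), 903 higher (4.07%) and 1107 lower (4.99%), and all 972 were among them with the same direction. Leaving out single arrays, so that fewer entered the fit, gave other counts without the block. They were 297 without day 12 replicate 2, 364 without day 8 replicate 2 and 419 without day 12 replicate 1. The others were 574 without day 8 replicate 3, 740 without day 8 replicate 1 and 998 without day 12 replicate 3. Under all alternatives that tested them, 242 genes kept their call, 80 higher and 162 lower. In these bulk samples, fewer cells of a type and less RNA per cell cannot be told apart.

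**Figure D1:**
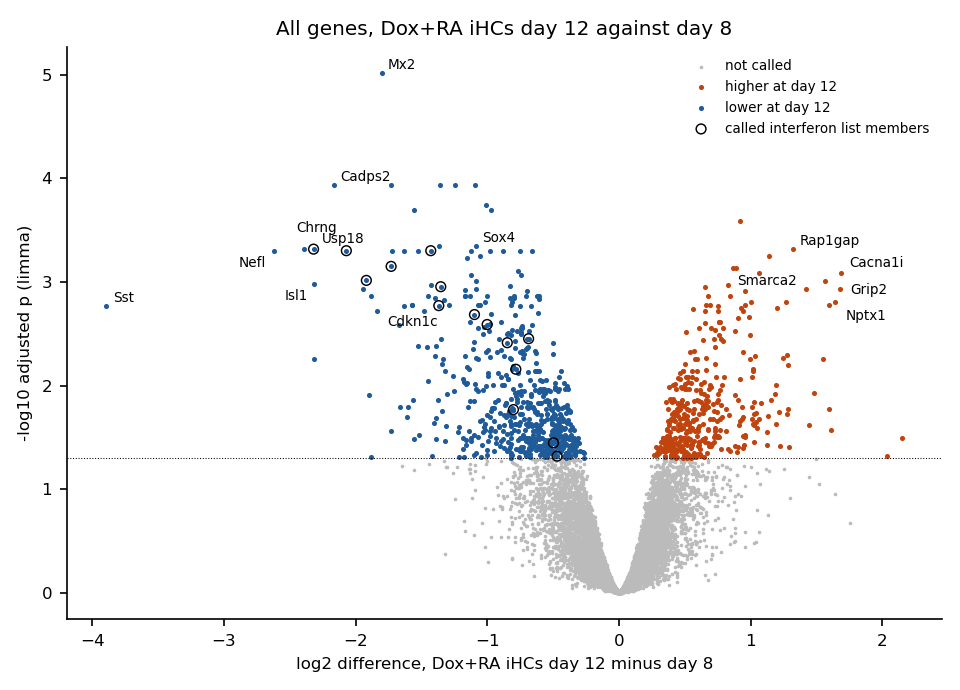
Each point is a gene, with the log2 difference (Dox+RA iHCs day 12 minus day 8) on the x axis and the -log10 of the limma adjusted p on the y axis. The dotted line marks an adjusted p of 0.05, red and blue points are the 394 genes higher and 578 lower on day 12, and circles mark the 15 called members of the interferon list. Mx2 has the smallest adjusted p and Sst the lowest difference, and the genes past 2-fold are more often on the lower side.

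The interferon-stimulated genes had the largest share of called members of any list. Of 29 measured members of that list, 15 fell (51.7%, against 2.61% of all genes) and 0 rose, and the remaining 14 did not pass the test in limma. The list's median difference was -0.47, against 0.03 over all genes, and 24 of the 29 members were below 0. The mean level of the list per array was 5.36 to 5.54 on day 12, against 5.94 to 6.24 on day 8, so the days did not overlap. Leaving out single arrays gave 12 to 16 falls, and 12 to 15 of the 15 members remained among them.

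The largest falls among effectors of this pathway separated the days in every array. Usp18, a protease that removes the ubiquitin-like protein Isg15 and restrains interferon signalling, read 6.73, 6.82 and 7.31 on day 12, against 9.01, 9.26 and 9.55 on day 8. The lowest day 8 array was above the highest day 12 array, and the gene fell by 2.32 ± 0.26 (SE) on the log2 scale, 4.99-fold (limma adjusted p = 0.000482). Mx2, a dynamin-like antiviral GTPase that is not on the list, read 4.08, 4.15 and 4.32 on day 12, against 5.88, 5.92 and 6.15 on day 8. Both days were tight, and its fall by 1.80 ± 0.12, 3.49-fold, had the smallest adjusted p of all genes (limma, 9.65e-06). Oas1b, of the oligoadenylate synthetase family that senses double-stranded RNA, read 4.34, 4.75 and 5.05 on day 12, against 6.29, 6.57 and 7.49 on day 8. It fell 4.20-fold (limma adjusted p = 0.000499), with day 12 replicate 3 nearest to the day 8 arrays. Oasl2, of the same family, read 5.95, 5.71 and 5.85 on day 12, against 7.62, 7.96 and 7.68 on day 8, and fell 3.78-fold (limma adjusted p = 0.000965). The families of Oas, Mx and Ifit genes have close copies, and probes that read more than 1 copy cannot be told apart from the values.

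Several sensors, signal carriers and other effectors fell too. Ddx58, which encodes the RNA sensor RIG-I, fell by 1.73 (limma adjusted p = 0.000707), and Ifih1, which encodes the sensor MDA5, fell by 1.10. Of the complex that drives these promoters, Stat2 read 6.47, 6.66 and 6.53 on day 12, against 7.09, 7.33 and 7.30 on day 8, and fell by 0.69 (limma adjusted p = 0.00352). Irf9 fell by 0.50 (limma adjusted p = 0.0356), a call lost without day 12 replicate 1 or 2 or day 8 replicate 2 or 3, with adjusted p up to 0.136. Ifit1, which binds viral RNA ends, read 5.56, 5.50 and 5.22 on day 12, against 6.76, 7.10 and 6.70 on day 8, and fell 2.69-fold (limma adjusted p = 0.000499). Bst2, which tethers budding virus to the cell, fell by 1.37 and the antiviral factor Parp9 fell by 1.35. Rtp4 fell by 1.0, Zbp1, a nucleic acid sensor, fell by 0.85, and Trim25, a ubiquitin ligase that acts on RIG-I, fell by 0.78. Also outside the list, Parp12 fell by 1.95 (limma adjusted p = 0.00118), the guanylate-binding protein Gbp7 fell by 1.74 (limma adjusted p = 0.000116) and the antibody receptor and ubiquitin ligase Trim21 fell by 1.56 (limma adjusted p = 0.0002).

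Some members of the pathway did not pass the test. Ifit3, next of kin to Ifit1, read 6.61, 6.45 and 6.42 on day 12, against 6.39, 6.42 and 6.36 on day 8, a difference of 0.11 (limma adjusted p = 0.728). The regulator Irf7 differed by -0.27 (limma adjusted p = 0.079), and B2m, the light chain of MHC class I, by -0.01. Rsad2 fell by 0.80 (limma adjusted p = 0.017), a call lost without day 12 replicate 2 or 3 or day 8 replicate 2 or 3 (adjusted p up to 0.0693). Isg15 fell by 0.47 at the edge of the threshold (limma adjusted p = 0.0478), which was lost without any single one of day 12 replicates 1, 2 and 3 and day 8 replicates 2 and 3 (adjusted p up to 0.194).

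The promoters of these genes are shown because the response element can be read in them. The core of the element was searched as GAAA, any 2 bases and GAAA again, on both strands, in windows of 250 bases before to 50 after the start of each gene in RefSeq (GRCm38.p6), and overlapping matches are joined in the capitals. It was present in 1131 of 32851 promoters (3.44%). Counted by gene, it was present in 657 of the 16990 tested genes that have an entry (3.87%). Of such genes, 33 of 455 called lower (7.25%) and 11 of 308 called higher (3.57%) held it. It was in 7 of the 10 called interferon list members that have an entry (70.0%). Of the members that were not called and have one, 3 of 11 held it (27.3%). In the 60-base windows below, written 5′ to 3′ on the gene's strand with capitals at each match, Ifit1 held 2 matches, Bst2 held 2, Isg15 held 3 and Gbp7 held 1.
Ifit1, chr19:34640769-34640828, + strand: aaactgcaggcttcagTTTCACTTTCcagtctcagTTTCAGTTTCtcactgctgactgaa
Bst2, chr8:71537565-71537624, - strand: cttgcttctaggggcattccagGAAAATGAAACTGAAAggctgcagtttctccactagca
Isg15, chr4:156200856-156200915, - strand: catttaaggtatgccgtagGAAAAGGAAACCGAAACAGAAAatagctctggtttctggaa
Gbp7, chr3:142530258-142530317, + strand: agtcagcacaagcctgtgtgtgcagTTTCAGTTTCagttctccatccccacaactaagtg
Each window lies before the start site, at 60 to 120 bases for Ifit1, 92 to 152 for Bst2, 37 to 97 for Isg15 and 18 to 78 for Gbp7. Ifit1 and Isg15, which fell by 1.43 and 0.47, thus both carry the letters, as do B2m and Ifit3, which did not pass the test. A match describes the sequence and does not show binding, and Oasl2, Irf9 and Trim25 had no match in the window searched.

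Over time in Dox iHCs, which had no RA, 0 members of the interferon list passed the test in limma, where 1785 of all genes did (8.05%), and the list's median change was -0.01. Its mean level per array was 5.14 to 5.18 on day 12 and 5.11 to 5.25 on day 8 in Dox iHCs. All 3 Dox+RA arrays of day 8 were thus above every Dox array, and the Dox+RA arrays of day 12, at 5.36 to 5.54, lay between. In control EBs the list averaged 5.52 to 5.66 on day 12 and 5.37 to 5.53 on day 8, where 1 member rose (2.33% of all genes did) and 0 fell (1.42%).

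The difference between the changes was itself tested, as the change over time in Dox+RA iHCs minus that in Dox iHCs. It passed for 2 of 22180 genes (0.00902%), with 1276 at an unadjusted p under 0.05, and for 0 of the 29 members of the interferon list. The stronger of the 2 was Mx2. Mx2 changed by -1.80 in Dox+RA iHCs and by 0.09 in Dox iHCs, a difference of -1.89 ± 0.17 (limma adjusted p = 0.000536) that passed in all 17 alternatives that tested it. The other was Cbln2, a secreted synapse organiser, which changed by 0.34 in Dox+RA iHCs and by 1.66 in Dox iHCs (limma adjusted p = 0.0495). That call passed in 7 of 18 alternatives and was lost without day 12 replicate 1 or 2 or day 8 replicate 2 or 3 of either treatment, with adjusted p up to 0.261. With the replicate number as a block, 15 genes passed, 13 lower and 2 higher, and 3 of them were among the 29 list members (Oasl2, Ifit1 and Bst2). Besides Mx2 and Cbln2 they were Oasl2 (difference -2.05, limma adjusted p = 0.0446), Parp12 (-1.76, 0.0446), Ifit1 (-1.45, 0.0461), Bst2 (-1.44, 0.0452), Gbp7 (-1.33, 0.0461) and Trim21 (-1.14, 0.0212), as well as Ankfn1, Oacyl, Itga8, Dtna and Erich3, all lower, and St6gal1 and Popdc3, both higher. With all arrays and no block, none of the first 6 passed, the smallest adjusted p among them being 0.15. Single arrays mattered here: without the block, Oasl2 passed when Dox day 8 replicate 1 was left out, Parp12 without Dox+RA day 8 replicate 1, Trim21 without Dox+RA day 12 replicate 3 and Gbp7 without either of those Dox+RA arrays. For Usp18 the difference of -1.73 passed in 0 of 18 alternatives (limma adjusted p = 0.272).

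**Figure D2:**
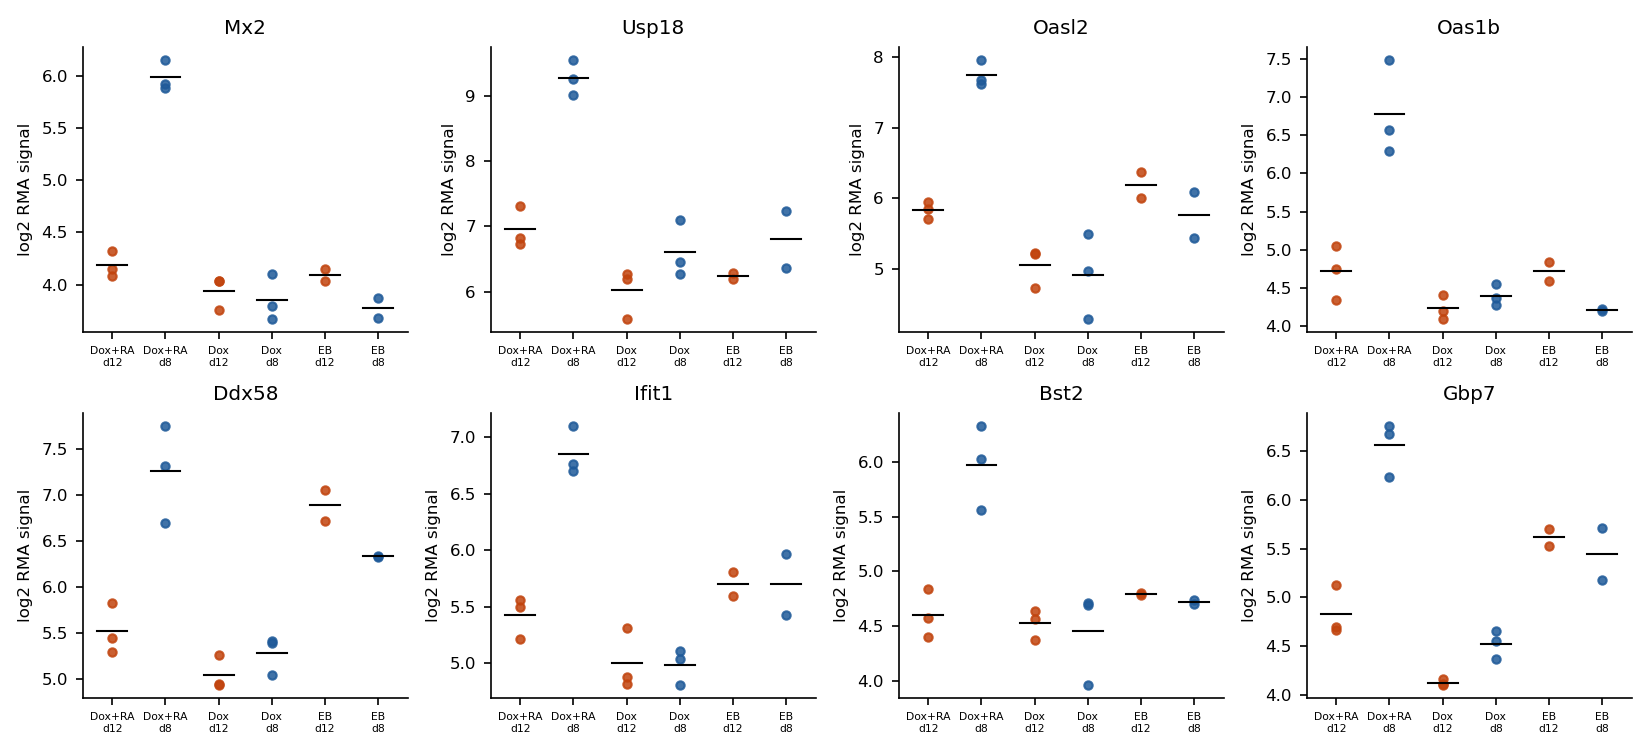
Log2 RMA signal on the y axis, 1 point per array, for 8 interferon-stimulated genes in the 6 groups, day 12 left of day 8 within each treatment, with a line at each group mean. The 3 Dox+RA arrays of day 8 lie above every other array in 7 of the 8 panels. In the panel of Ddx58 the 2 control EB arrays of day 12 reach their range.

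Several genes of sensory and other neurons fell. The largest single change was that of Sst. Sst, which encodes the peptide hormone somatostatin, read 5.67, 5.70 and 6.65 on day 12, against 8.82, 10.10 and 10.78 on day 8. The day 8 arrays were widely spread, with replicate 1 lowest, yet the days did not overlap, and it fell by 3.89 ± 0.57 (SE), 14.9-fold (limma adjusted p = 0.00171). In Dox iHCs it changed by -3.53, so the difference between the treatments, -0.36, did not pass (limma adjusted p = 0.993). Its promoter is printed because it carries the cyclic AMP response element through which somatostatin transcription is known to respond to cyclic AMP. The element, TGACGTCA, reads the same on both strands and was present in 588 of 32851 promoters (1.79%). Counted by gene, 450 of the 16990 tested genes that have an entry held it (2.65%). Its single match in this window is in capitals.
Sst, chr16:23890859-23890918, - strand: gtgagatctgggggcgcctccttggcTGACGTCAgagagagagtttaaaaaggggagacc
The window ends 14 bases before the start site (RefSeq, GRCm38.p6).

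Of 43 neuronal cytoskeleton and identity genes, 5 fell (11.6%, against 2.61% of all genes) and 0 rose. Leaving out single arrays gave 4 to 7 falls, and the median difference was -0.13. Nefl, the light neurofilament chain, read 7.0, 6.36 and 7.15 on day 12, against 9.30, 9.82 and 9.24 on day 8, and fell by 2.62 ± 0.31, 6.14-fold (limma adjusted p = 0.000499). In the control EBs the same gene rose by 1.56 (limma adjusted p = 0.0302). Isl1, a LIM homeobox factor of sensory and motor neurons that early hair cells express too, read 5.61, 6.37 and 6.95 on day 12, against 8.21, 8.80 and 8.88 on day 8, and fell 4.99-fold (limma adjusted p = 0.00104). Pou4f1, the close relative of Pou4f3 in sensory neurons, fell by 0.75 (limma adjusted p = 0.00169), and Uchl1, an abundant neuronal deubiquitinating enzyme, by 1.06 (limma adjusted p = 0.00168). The neurofilament gene Nefm fell by 0.82 (limma adjusted p = 0.0449), a call that passed in 6 of 11 alternatives. Of 29 hair cell transcription and RNA regulators measured, 3 fell (10.3%, against 2.61% of all genes) and 0 rose, with Isl1 lowest at -2.32. Leaving out single arrays gave 2 to 4 falls there. Lhx4, also of that list, lost its call without day 12 replicate 1 or 2 or day 8 replicate 2 or 3 (limma adjusted p up to 0.192).

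Axon guidance and adhesion genes showed 6 falls and 0 rises among 45 members (13.3% lower, against 2.61% of all genes). The falls numbered 3 to 7 when single arrays were left out, and the median was -0.16. With the replicate block, where 4.99% of all genes fell and 4.07% rose, the list had 9 falls and 1 rise. Nrp2, the neuropilin that receives class III semaphorins, read 5.67, 5.76 and 5.95 on day 12, against 6.92, 7.44 and 7.22 on day 8, and fell 2.63-fold (limma adjusted p = 0.00142). Sema3e, a secreted semaphorin, fell by 0.73 (limma adjusted p = 0.0048), while in Dox iHCs it changed by 0.01 (the difference between treatments had an adjusted p of 0.382). Cdh2, which encodes N-cadherin, fell by 0.63 (limma adjusted p = 0.00721). Outside the list, Cadps2, which primes dense-core vesicles for release, read 4.11, 4.16 and 4.07 on day 12, against 5.99, 6.79 and 6.04 on day 8. It fell 4.47-fold (limma adjusted p = 0.000116), and the adhesion gene Cntn3, also not on the list, fell by 1.53 (limma adjusted p = 0.00413).

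Among neural basic helix-loop-helix and progenitor genes, 4 of 29 fell (13.8%, against 2.61% of all genes) and 1 rose (3.45%, against 1.78%). The falls numbered 2 without day 12 replicate 2 or day 8 replicate 2 or 3, and the rises 0 without day 12 replicate 1 or day 8 replicate 2. Sox4, which acts in newly formed neurons, fell by 1.08 ± 0.12 (limma adjusted p = 0.000452), with 6.44, 6.27 and 6.64 on day 12 and 7.37, 7.64 and 7.60 on day 8. Sox2, of neural progenitors and inner ear supporting cells, fell by 0.98 (limma adjusted p = 0.00203), with 8.53, 8.81 and 8.91 on day 12 and 9.51, 9.75 and 9.91 on day 8. Both genes separated the days in every array. Of 13 Merkel cell genes, another mechanosensory cell type that uses Atoh1, 3 fell (23.1%, against 2.61% of all genes) and 0 rose, and these were Sst, Isl1 and Sox2. That count was 3 without each array in turn.

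**Figure D3:**
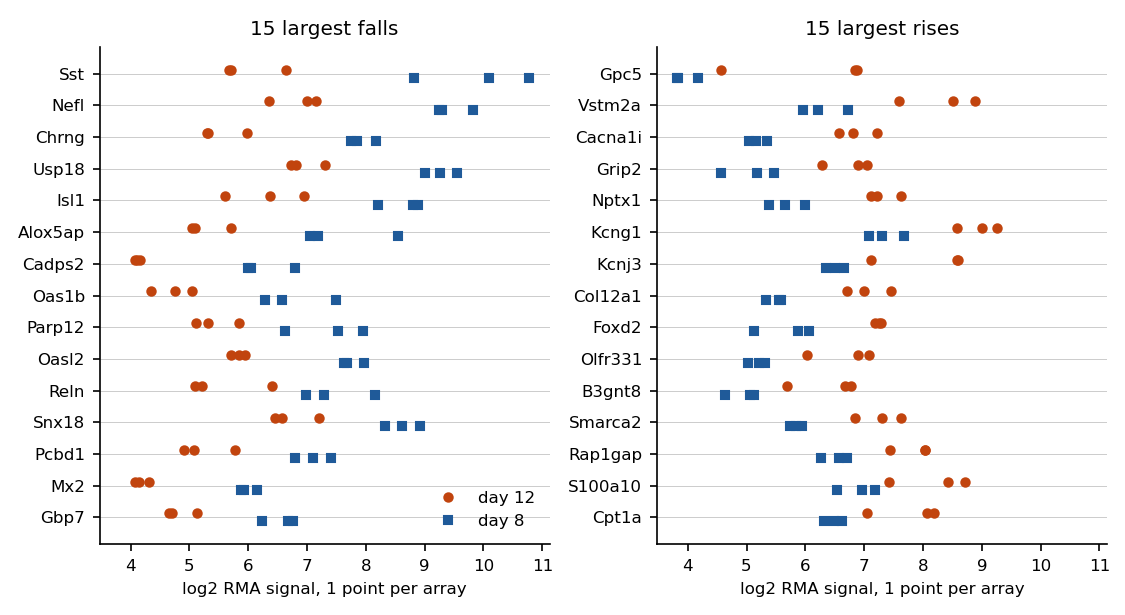
Log2 RMA signal on the x axis, 1 point per array, for the 15 largest falls (left) and 15 largest rises (right) among called genes whose arrays separate the days, day 12 as circles above day 8 as squares. Among the falls, Sst has the widest gap between the days and the widest spread within day 8. In Gpc5 day 12 replicate 3, at 4.56, lies near the day 8 arrays, at 3.82 to 4.18.

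Genes of muscle and of the muscle-type acetylcholine receptor changed in part in opposite directions. Chrng, the gamma subunit of the fetal receptor, read 5.30, 5.32 and 5.98 on day 12, against 7.85, 8.17 and 7.75 on day 8, and fell by 2.39 ± 0.27, 5.24-fold (limma adjusted p = 0.000482). Chrne, the epsilon subunit that takes its place in adult muscle, read 5.93, 6.80 and 7.23 on day 12, against 5.21, 5.43 and 5.74 on day 8, and rose 2.28-fold (limma adjusted p = 0.00988). Neither gene's arrays overlapped between the days. The call of Chrne was lost without day 12 replicate 2 (adjusted p = 0.056) and when only the 2 groups entered the fit (0.0653). The subunits shared by both receptors did not pass, with differences of 0.09 for Chrna1, -0.16 for Chrnb1 and 0.14 for Chrnd. In Dox iHCs Chrng changed by -0.94 (limma adjusted p = 0.0447), and the difference between treatments did not pass (adjusted p = 0.505).

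Of 27 cardiac and muscle genes, 3 fell (11.1%, against 2.61% of all genes) and 0 rose. The falls numbered 1 to 4 when single arrays were left out and 5 with the replicate block, where 4.99% of all genes fell. The list averaged 5.18 to 5.26 per array on day 12 and 5.40 to 5.57 on day 8. Actn2, which encodes sarcomeric alpha-actinin, read 4.86, 4.62 and 5.29 on day 12, against 6.47, 6.16 and 6.06 on day 8, and fell by 1.30 (limma adjusted p = 0.012), a call lost without day 12 replicate 2 (adjusted p = 0.0727). Actc1, cardiac actin, fell by 1.31 and lost its call without day 12 replicate 1 or 2 or day 8 replicate 2 (adjusted p up to 0.116). Tnnc1, slow troponin C, fell by 0.72 and lost its call without day 12 replicate 1 or day 8 replicate 2 or 3 (adjusted p up to 0.0943). Calls that held throughout came from outside the list. Mybphl, a myosin-binding protein, read 5.90, 5.97 and 6.0 on day 12, against 7.26, 7.71 and 7.91 on day 8. It fell 3.18-fold (limma adjusted p = 0.00262), and Mybpc1, of slow muscle, fell by 1.35 (limma adjusted p = 0.00615). Other muscle genes outside the list did not hold: Atp2a1 fell by 1.73 and Ryr1 by 1.05. Both calls were lost without any single array other than day 8 replicate 3 (limma adjusted p up to 0.122 and 0.169). They were also lost when only the groups compared entered the fit. The muscle determination factors Myod1 and Myog differed by 0.02 and 0.01 and did not pass.

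Within the retinoid pathway, Rxra, the shared partner of the retinoic acid receptors, gave the firmest change. It read 6.62, 6.75 and 6.59 on day 12, against 5.75, 5.86 and 5.87 on day 8, and rose by 0.82 ± 0.11 (limma adjusted p = 0.00106). It rose in Dox iHCs as well, by 0.63 (limma adjusted p = 0.00416), and in control EBs by 0.53 (limma adjusted p = 0.0374). Of the 25 retinoid genes measured, 3 rose (12.0%, against 1.78% of all genes) and 2 fell (8.00%, against 2.61%), and when single arrays were left out 1 to 3 rose and 0 to 2 fell.

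The remaining retinoid calls were each lost without any of several single arrays, where fewer arrays entered the fit. Crabp1, a cytoplasmic carrier of retinoic acid, read 5.96, 6.25 and 7.37 on day 12, against 7.46, 7.92 and 8.86 on day 8, and fell by 1.55 (limma adjusted p = 0.033). Crabp2, which delivers retinoic acid to its receptors, fell by 1.32 (limma adjusted p = 0.034). Cyp26b1, an enzyme that breaks retinoic acid down, read 8.32, 9.09 and 8.41 on day 12, against 7.32, 7.84 and 8.18 on day 8, and rose by 0.82 (limma adjusted p = 0.0412), and the receptor gene Rarg rose by 0.54 (limma adjusted p = 0.0403). Each of these calls passed in 7 of 12 alternatives. That of Crabp1 was lost without day 12 replicate 1 or 2 or day 8 replicate 2 or 3 (adjusted p up to 0.142), that of Crabp2 without any of those or day 8 replicate 1 (up to 0.133), that of Cyp26b1 without day 12 replicate 1 or 2 or day 8 replicate 1 or 2 (up to 0.183) and that of Rarg without any day 12 replicate or day 8 replicate 1 or 2 (up to 0.166).

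Hox genes and their cofactors were tested beside them. Of 13 Hox genes of paralogue groups 1 to 5, only 1 fell (7.69%, against 2.61% of all genes). It was Hoxb1, of the hindbrain, which fell by 1.39 (limma adjusted p = 0.0326). That call was lost without day 12 replicate 1 or 2 or day 8 replicate 2 or 3 (adjusted p up to 0.121). Of 23 Hox genes of groups 6 to 13, 0 passed in limma, with 3 at an unadjusted p under 0.05, all higher. With the replicate block, where 4.99% of all genes fell and 4.07% rose, 2 genes of the first list fell and 1 of the second rose. The homeobox cofactors Meis2 and Pbx3 fell in every alternative. Meis2 read 7.77, 7.65 and 7.63 on day 12, against 8.89, 8.97 and 8.56 on day 8, and fell 2.18-fold (limma adjusted p = 0.000499), and Pbx3 fell by 1.08 (limma adjusted p = 0.000982). In control EBs Meis2 rose by 0.62 (limma adjusted p = 0.0436), and the difference from the EBs passed (limma adjusted p = 0.000289).

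Few genes of the hair bundle passed the test, but their shares were not below those of all genes. Of 20 genes of the transduction complex and tip link, 1 rose (5.0%) and 1 fell (5.0%), with a median difference of 0.25. Over all genes, 1.78% rose and 2.61% fell. Whrn, a scaffold of stereocilia tips and of the Usher complex, read 6.87, 6.86 and 6.46 on day 12, against 5.74, 5.99 and 6.08 on day 8, and rose by 0.79 (limma adjusted p = 0.00278). Pcdh15, which forms the lower part of the tip link, fell by 0.51 (limma adjusted p = 0.0208), a call lost without day 12 replicate 2 or 3 or day 8 replicate 2 or 3 and when entries of a gene were averaged (adjusted p up to 0.159). Its partner Cdh23 differed by -0.38 (limma adjusted p = 0.274) and Tmc1 by 0.55 (limma adjusted p = 0.0717). In Dox iHCs 12 genes of this list rose and 0 fell, where 3.39% of all genes rose and 4.66% fell, with a median of 0.58, and 0 members passed the test of the difference between treatments. With the replicate block 4 rose and 1 fell in Dox+RA iHCs, where 4.07% of all genes rose and 4.99% fell. Tmc1 was among the members that passed (limma adjusted p = 0.00618).

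Of 32 stereocilia actin core and myosin genes, 3 rose (9.38%, against 1.78% of all genes) and 1 fell (3.12%, against 2.61%). They were the actin regulator Ripor2 (rise of 0.75), the membrane linker ezrin, Ezr (rise of 0.73), the adaptation motor Myo1c (rise of 0.61) and the bundling protein fascin, Fscn1 (fall by 1.02). Leaving out day 12 replicate 1 or day 12 replicate 2 left 0 rises and 0 falls in this list. The replicate block gave 4 rises and 3 falls, where 4.07% of all genes rose and 4.99% fell. Among 17 calcium buffers, pumps and cholinergic receptor genes of hair cells 0 passed in limma, with 3 at an unadjusted p under 0.05, and 2 rose and 1 fell with the replicate block. Chrna10, the cholinergic receptor subunit with Chrna9, read 9.44, 9.26 and 8.39 on day 12, against 8.62, 8.53 and 6.81 on day 8, and the difference of 1.04 did not pass (limma adjusted p = 0.325) unless the replicate number was a block (limma adjusted p = 0.00599).

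Ribbon synapse and vesicle release genes had 3 rises and 3 falls among 51 members (5.88% each way, against 1.78% of all genes higher and 2.61% lower), with a median of 0.14. The falls numbered 0 without day 12 replicate 1 or 2 or day 8 replicate 3. The replicate block gave 6 rises and 4 falls, where 4.07% of all genes rose and 4.99% fell. Syt7, a calcium sensor of slow vesicle release, read 9.78, 9.72 and 9.55 on day 12, against 8.94, 8.59 and 8.47 on day 8, and rose 2.02-fold (limma adjusted p = 0.00689). Vamp1, a vesicle fusion protein, rose by 0.50 (limma adjusted p = 0.0103), and both calls held in all 12 alternatives. Slc17a8, the vesicular glutamate transporter of inner hair cells, fell by 0.59 (limma adjusted p = 0.0317), a call that passed in 8 of 12 alternatives. Ctbp2 fell too, a call lost without day 12 replicate 1 or 2 or day 8 replicate 3 (limma adjusted p up to 0.0751). Pclo rose, and its call was lost whichever single array was left out (limma adjusted p up to 0.153).

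Channels and synaptic genes were among the largest rises. Cacna1i, a T-type calcium channel, read 7.21, 6.81 and 6.57 on day 12, against 5.34, 5.16 and 5.04 on day 8, and rose by 1.68 ± 0.21, 3.21-fold (limma adjusted p = 0.00082). Grip2, a scaffold of AMPA receptors, read 6.90, 7.05 and 6.29 on day 12, against 4.56, 5.18 and 5.47 on day 8, and rose 3.20-fold (limma adjusted p = 0.00118). Nptx1, a secreted pentraxin that clusters those receptors, read 7.21, 7.62 and 7.11 on day 12, against 5.38, 5.65 and 5.99 on day 8, and rose 3.12-fold (limma adjusted p = 0.00155). In all 3 genes the days were separate, and all 3 rose in Dox iHCs too, by 1.28, 1.10 and 1.48.

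Of 48 ion channel genes on the list, 4 rose (8.33%, against 1.78% of all genes) and 0 fell. Leaving out single arrays gave 1 to 4 rises. The replicate block gave 8 rises and 2 falls, where 4.07% of all genes rose and 4.99% fell. Kcnh2, which carries the hERG-type potassium current, read 7.96, 8.09 and 7.98 on day 12, against 7.38, 7.27 and 7.44 on day 8, and rose by 0.65 (limma adjusted p = 0.00111). Kcng1, a silent modifier of delayed rectifier channels that is not on the list, rose 3.02-fold (limma adjusted p = 0.00168). Of 38 neurotransmitter receptor genes 2 rose (5.26%, against 1.78% of all genes) and 0 fell, with 2 falls under the replicate block. The rises were the kainate receptor subunit Grik4 (rise of 0.76) and the serotonin-gated channel Htr3a (rise of 0.58). Gpc5, a heparan sulfate proteoglycan, and Vstm2a had the largest fitted rises, 2.15 and 2.03, but they passed in only 5 of 11 and 5 of 12 alternatives. Gpc5 was lost without any single array other than day 12 replicate 3 (adjusted p up to 0.148) and so was Vstm2a (up to 0.175).

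Smarca2, the Brm ATPase of BAF chromatin remodelling complexes, read 7.62, 7.31 and 6.85 on day 12, against 5.84, 5.94 and 5.74 on day 8. It rose by 1.42 ± 0.19, 2.68-fold (limma adjusted p = 0.00118), with the days separate. In Dox iHCs it changed by 0.27 (limma adjusted p = 0.484) and in control EBs it rose by 0.91 (limma adjusted p = 0.0438), and neither difference in change passed (limma adjusted p = 0.371 and 0.515). Of the 27 BAF and chromatin genes measured, 2 rose and 2 fell (7.41% each way, against 1.78% of all genes higher and 2.61% lower). The falls numbered 0 without day 12 replicate 1 or 2 or day 8 replicate 2 or 3, and the rises 1 without day 12 replicate 1 or 2. The replicate block gave 4 rises and 3 falls, where 4.07% of all genes rose and 4.99% fell. Outside this list, Foxd2, a forkhead factor, rose 2.93-fold (limma adjusted p = 0.00554). Col12a1, a fibril-associated collagen that is not on it either, rose 2.95-fold (limma adjusted p = 0.000982) and in control EBs by 2.23.

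Genes of cell division lay lower on day 12. All 34 mitosis genes had a difference below 0, with a median of -0.52, and 8 fell (23.5%, against 2.61% of all genes), with 24 at an unadjusted p under 0.05. The list averaged 4.84 to 4.92 per array on day 12, against 5.22 to 5.58 on day 8. The count of falls was 1 without day 8 replicate 2 or without day 8 replicate 3, and 2 without day 12 replicate 1 or 2. It was 18 with the replicate block, where 4.99% of all genes fell. Smc2, a condensin subunit, read 5.51, 5.49 and 5.49 on day 12, against 6.18, 6.46 and 6.39 on day 8, and fell by 0.85 (limma adjusted p = 0.00313) in every alternative. Top2a, which untangles DNA, fell by 0.87 (limma adjusted p = 0.0154) and Mki67, the proliferation marker Ki-67, by 0.90 (limma adjusted p = 0.034). Both were lost without day 12 replicate 1 or 2 or day 8 replicate 2 or 3, with adjusted p up to 0.0709 for Top2a and 0.139 for Mki67. In Dox iHCs 30 of the 34 fell, where 4.66% of all genes did, with a median of -1.03, and 0 members passed the test of the difference between treatments. Of 39 genes of the G1/S transition and DNA replication, 4 fell (10.3%, against 2.61% of all genes) and 0 rose, and the falls numbered 1 without day 12 replicate 1 or 2 or day 8 replicate 2 or 3 and 2 without day 12 replicate 3.

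Inhibitors of the cycle did not move as one. Cdkn1c, the imprinted inhibitor p57, read 6.45, 6.28 and 6.49 on day 12, against 7.75, 7.96 and 8.23 on day 8, and fell 2.97-fold (limma adjusted p = 0.00168). Rbl2, a pocket protein of quiescent cells, read 7.42, 7.26 and 7.33 on day 12, against 6.83, 6.76 and 6.46 on day 8, and rose by 0.65 (limma adjusted p = 0.00192). Both calls held in all 12 alternatives, and both genes changed in the same direction in Dox iHCs, by -1.33 and 0.57. Of 14 such genes 1 rose (7.14%, against 1.78% of all genes) and 2 fell (14.3%, against 2.61%). There was 1 fall without day 12 replicate 2 or day 8 replicate 1 or 2.

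Of 36 cytosolic ribosomal protein genes 33 were below 0, with a median of -0.25. In limma 11 fell (30.6%, against 2.61% of all genes) and 0 rose. The count was 2 without day 12 replicate 2, 3 without day 8 replicate 2, 5 without day 8 replicate 1, 6 without day 12 replicate 3 and 7 with the entries of a gene averaged, and ribosomal genes have many processed copies that probes can share. Rpl32 fell by 0.74 (limma adjusted p = 0.0112), a call lost without day 12 replicate 2 (adjusted p = 0.0618). Among 20 stress genes of the endoplasmic reticulum and of amino acid supply, 3 passed. Of these, 2 rose (10.0%, against 1.78% of all genes) and 1 fell (5.0%, against 2.61%). Psat1, of serine synthesis, read 5.93, 5.89 and 5.42 on day 12, against 7.29, 7.54 and 6.78 on day 8, and fell 2.74-fold (limma adjusted p = 0.00137). Atf5, a stress-responsive factor, rose by 0.86 (limma adjusted p = 0.000725) and Herpud1, of protein quality control, by 0.55 (limma adjusted p = 0.00725).

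Markers of other cell types were tested as well. Of 20 endothelial genes 0 passed in limma, with 1 higher and 6 lower at an unadjusted p under 0.05, whereas 5 fell with the replicate block (4.99% of all genes did), and the list averaged 4.74 to 5.50 per array on day 12 and 5.35 to 5.82 on day 8, so that the days overlapped. Of 35 mesenchyme and matrix genes 3 fell (8.57%, against 2.61% of all genes) and 0 rose, with 0 to 3 when single arrays were left out, and their mean levels overlapped (5.15 to 5.38 on day 12, 5.25 to 5.38 on day 8). Of 21 blood genes 2 fell (9.52%, against 2.61% of all genes), the embryonic globins Hba-x (by 1.04) and Hbb-bh1 (by 0.79), and both calls were lost without day 12 replicate 1 or day 8 replicate 2 (adjusted p up to 0.0578). The list averaged 4.65 to 4.73 on day 12 and 4.79 to 4.90 on day 8. Of 28 Notch ligands, receptors and effectors 0 passed in limma, with 1 higher and 4 lower at an unadjusted p under 0.05. With the replicate block 1 rose and 1 fell, where 4.07% of all genes rose and 4.99% fell. The part of such cells in the falls of muscle and neuronal genes was not tested.

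**Figure D4:**
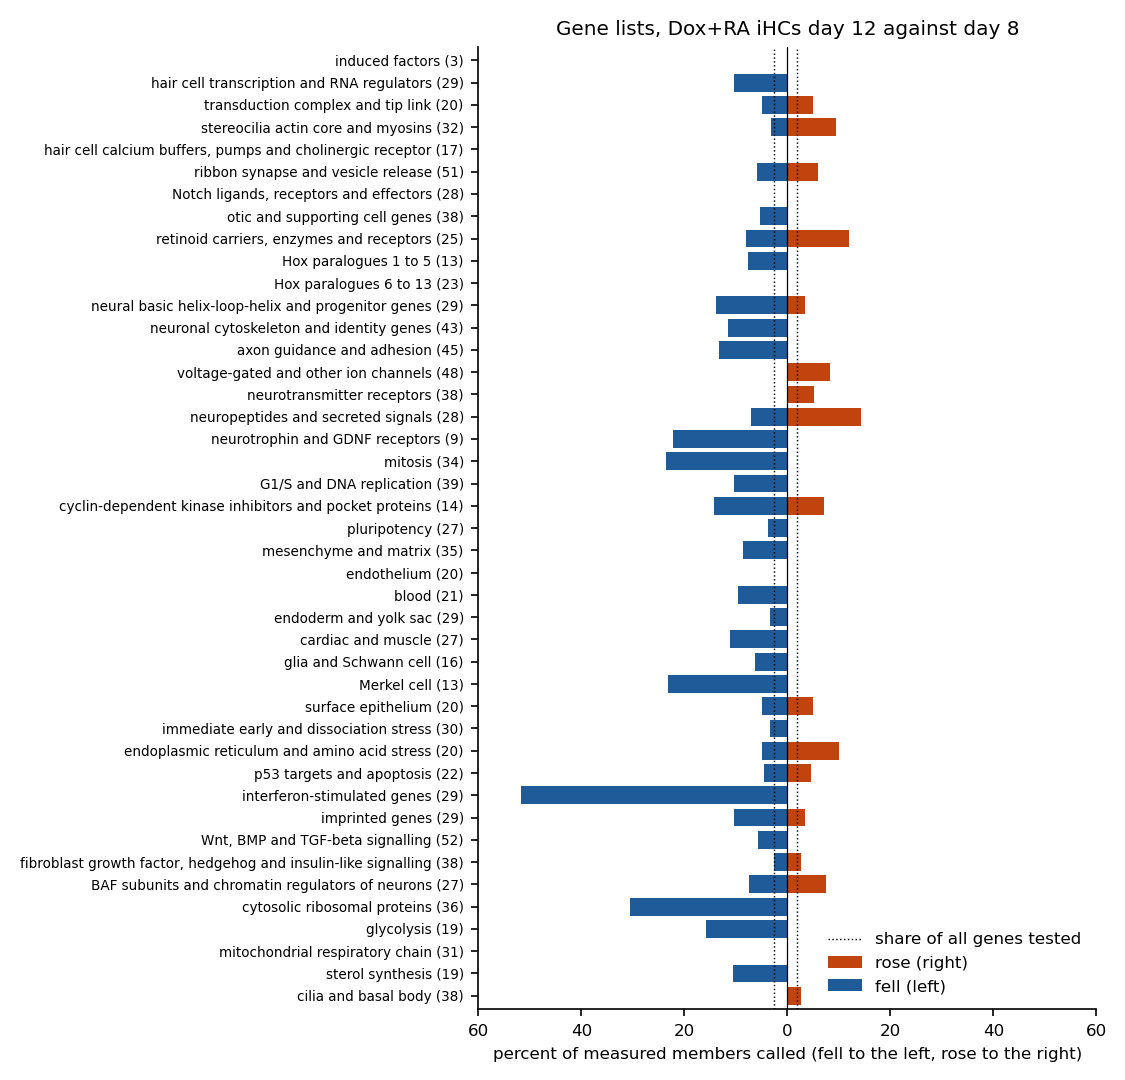
Percent of the measured members (number in brackets) of each of 43 gene lists that rose (right) or fell (left) on day 12 at a limma adjusted p under 0.05. The dotted lines mark the shares of all genes, 1.78% for rises and 2.61% for falls. The interferon-stimulated genes reach 51.7% lower, followed by cytosolic ribosomal proteins at 30.6% and mitosis genes at 23.5%.

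Many of the genes that changed with RA also changed without it. Of the 394 genes higher on day 12, 209 (53%) were also called higher in Dox iHCs, which is 27.8% of the 751 called there (3.39% of all genes). Of the 578 lower genes, 302 (52.2%) were also called lower in Dox iHCs, which is 29.2% of the 1034 called there (4.66%). In Dox iHCs, 0 of the 972 were called in the opposite direction, and 378 of the 394 and 553 of the 578 had the same sign whatever their p. These 2 comparisons share no arrays, but the fit gave each gene the same spread in both, so their calls are not independent. Control EBs had 831 calls (3.75%), 516 higher (2.33%) and 315 lower (1.42%), of which 29 were among the 394 and 23 among the 578, while 4 of the 394 and 15 of the 578 went the opposite way.

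The difference from the EBs passed for 582 genes (2.62%), 212 above (0.956%) and 370 below (1.67%), and the count was 268 without day 8 replicate 2 of the control EBs and 272 without their day 12 replicate 1. Slitrk6, a transmembrane protein needed for innervation of the inner ear, fell by 1.01 in Dox+RA iHCs and rose by 2.59 in control EBs, a difference of -3.59 (limma adjusted p = 6.39e-06). Plcxd3 fell by 1.73 in Dox+RA iHCs and rose by 1.51 in control EBs (difference -3.24, limma adjusted p = 6.34e-05). Thbs2, a matrix thrombospondin, fell by 1.29 in Dox+RA iHCs and rose by 1.89 in control EBs (difference -3.19, limma adjusted p = 4e-05).

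**Figure D5:**
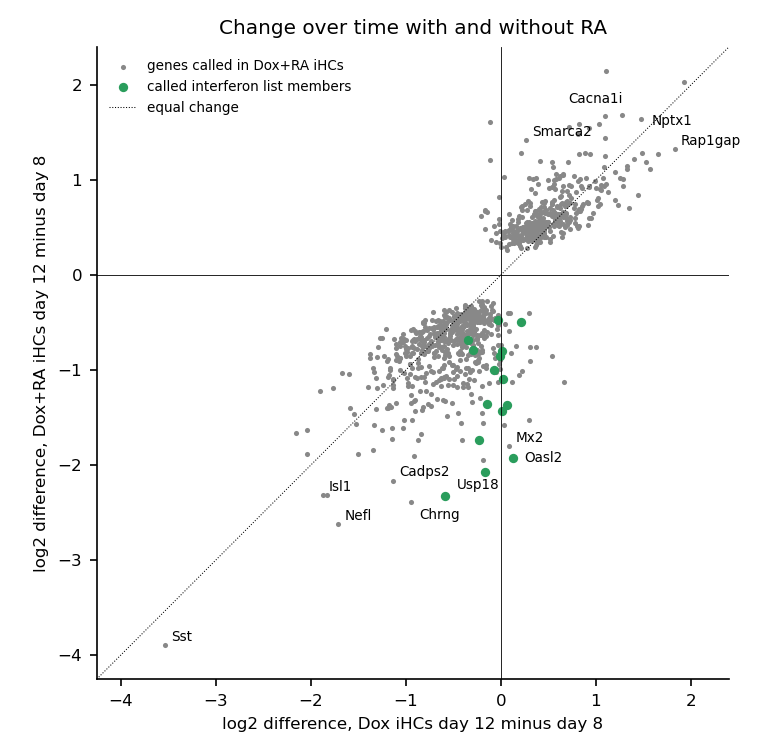
Each point is 1 of the 972 genes called in Dox+RA iHCs, with its log2 change over time (day 12 minus day 8) in Dox+RA iHCs on the y axis and in Dox iHCs on the x axis, and the dotted line marks equal change. Green points are the 15 called members of the interferon list, which lie well below 0 on the y axis and between -0.59 and 0.22 on the x axis. Sst lies near the line, at -3.89 and -3.53.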

How the data were processed

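RNA of 16 samples was hybridised to 1 array each. The deposited values are log2 signals that the authors made with Affymetrix Expression Console and RMA, per the submitters' processing notes, with versions and genome build not given in the sources used here; RMA compresses differences of dim genes, and detection calls were not used here. Of 33708 entries, 23521 carried 1 gene symbol, 1814 several and 8373 none in the platform annotation, and the entry with the highest mean was kept for 1082 genes with several entries, leaving 22180 genes. Promoter sequence is RefSeq's.

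Group means of all 6 groups (10 residual degrees of freedom) were fitted with limma 3.58.1 in R 4.3.3 (lmFit, contrasts.fit and eBayes at defaults), and a gene was called where its p, adjusted by Benjamini and Hochberg's method across the 22180 genes, was under 0.05. On simulated data of this comparison with 22180 genes, the fit called 92.0% of 100 genes changed by 1 log2 unit, 100% of 100 changed by 2 and 9 of 21980 unchanged ones. The simulated noise was independent between arrays, with the same spread in all groups for a gene. It held neither joint deviations of same-numbered arrays nor spreads that differ between groups, so these shares need not hold for the real arrays. Tables were made in Python 3.11.15 with pandas 2.3.3, and plots with matplotlib 3.10.9. The labels call the 3 samples per group biological replicates, and their number limits the precision. Same-numbered arrays deviated together (correlation of deviations from the group means 0.302, 0.147 and 0.347, over 0.1 in each pair, against -0.35 to 0.0982 for other numbers). The numbers from the labels' titles were therefore taken as pairs, but only in the replicate block. The main fit had no block, so calls and p-values given without mention of the block are unpaired. Alternatives were the 2 groups compared alone, the replicate block, the mean over entries, dim genes left out, trend and robust eBayes, arrays centred on their median, and each array left out. Scan dates and array positions were not used here.

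The genes and the 43 lists were chosen with earlier results of these data known. Named were the 15 largest rises and falls with separate arrays, up to 5 called members of a list (2 with none called) and 6 genes per direction of a difference in change, passing over predicted genes and small RNAs. Chrne, Chrna1, Chrnb1, Chrnd, Chrna10, Cntn3, Thbs2, Trim21, Ifit3, Irf7, B2m, Bst2, Parp9, Ifih1, Isg15, Stat2, Irf9, Rsad2, Trim25, Rtp4, Zbp1, Mybphl, Mybpc1, Atp2a1, Ryr1, Myod1, Myog, Meis2, Pbx3, Cdh23, Tmc1 and the genes named with the replicate block were chosen after their values were seen.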

Additional observations from a re-analysis of the deposited data

Results flagged for a closer look

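The results here stand out because the change over time (day 12 minus day 8) in Dox+RA iHCs differed, by the limma test of the difference itself, from that in another group. Against Dox iHCs the test called 2 genes, Mx2 with a difference of -1.89 and Cbln2 with a difference of -1.32. Mx2 changed by -1.80 in Dox+RA iHCs and by 0.09 in Dox iHCs. For Cbln2 the change was in the Dox iHCs, where it rose by 1.66, against 0.34 in Dox+RA iHCs.

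Against control EBs the test called 582 genes. Below the EBs, Sst differed by -4.61, with a fall in Dox+RA iHCs. Nefl differed by -4.18, Slitrk6 by -3.59 and Plcxd3 by -3.24, each with a fall in Dox+RA iHCs and a rise in EBs. Rxfp2, a relaxin family receptor, differed by -4.95 and Alb, serum albumin, by -4.14, and both rose in EBs, by 4.38 and 4.19. Above the EBs, Cited4, a transcriptional coactivator, differed by 3.38, with a change of 1.19 in Dox+RA iHCs and -2.19 in EBs. The atrial myosin light chain Myl7 differed by 3.01, Grap2, an adaptor of blood cells, by 2.59, Rhag of the red cell membrane by 2.35, the embryonic globin Hbb-y by 2.21 and Ermap, also of red cells, by 2.18. These 5 genes changed in the EBs, by -2.61 (Myl7), -2.71 (Grap2), -2.50 (Rhag), -2.62 (Hbb-y) and -2.32 (Ermap). The EBs were unsorted, so that treatment and sort cannot be told apart in any of these differences. The calls of Sst and Myl7 were lost without control EBs day 12 replicate 1 or day 8 replicate 2, with adjusted p up to 0.0721 for Sst and 0.0972 for Myl7.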

How the results depend on the processing

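The direction of no called gene named here was reversed under any alternative, but this was largely fixed in advance. The block, trend with robust eBayes and the 2 groups alone keep a gene's fitted difference between the days. Leaving out 1 array cannot reverse it where the arrays separate the days, as for 964 of the 972 calls. Of 161 named genes that were called, 77 kept the call under every alternative that tested them. Among 972 calls between the days in Dox+RA iHCs, the replicate block gave 2010 and leaving out 1 array gave 297 to 998. The 2 calls for the difference from Dox iHCs became 1 with only the groups compared, 15 with the replicate block, 0 with dim genes left out (where Mx2 was not tested and 721 genes had an unadjusted p under 0.05 in limma), 1 with trend and robust eBayes and 1 to 15 without single arrays, with 15 without Dox+RA day 12 replicate 3. The 582 calls for the difference from control EBs became 1150 with the replicate block, 364 with dim genes left out and 268 to 686 without single arrays. For Dox iHCs the 1785 calls became 420 with only the groups compared, 3139 with the replicate block and 644 to 2598 without single arrays. For control EBs the 831 calls became 553 with only the groups compared, 1255 with the replicate block, 393 with dim genes left out and 317 to 951 without single arrays. Where an array or a group was left out, fewer samples entered the fit, and the cause of the other shifts was not tested. With the block all 972 calls remained, and of the genes described as not passing between the days, Tmc1 and Chrna10 passed. Centring the arrays, averaging entries and trend with robust eBayes gave 887, 915 and 926 calls, with 858, 909 and 898 of the 972 among them. With 3 arrays a day, many calls were lost when 1 array was left out.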
